A study of Rattus norvegicus with 8 samples.

Results

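Prostaglandins are made in 3 steps, and the genes described here are the enzymes of the later 2 and of the breakdown that follows. The cyclooxygenases Ptgs1 and Ptgs2 turn arachidonic acid into prostaglandin H2, and a set of terminal synthases turns that into prostaglandin E2 (Ptges, Ptges2, Ptges3), prostaglandin D2 (Ptgds, Hpgds), prostacyclin (Ptgis) or thromboxane (Tbxas1). Hpgd, 15-hydroxyprostaglandin dehydrogenase, starts their inactivation. In the cervix prostaglandins, prostaglandin E2 above all, are known for their part in the softening of the tissue before birth, and prostaglandin preparations are used clinically to ripen it. The members are these 10 enzyme genes, listed by symbol. All 10 were among the 29884 genes of the counts table, and all 10 passed the filter on low counts, which left 16117 genes.

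The study measured RNA in the cervix of pregnant wild-type Sprague-Dawley rats. The LPS group received lipopolysaccharide, a component of the bacterial cell wall that stands in for infection, at 100 µg/kg into the peritoneal cavity on gestational day 17. The PBS group received the same volume of phosphate-buffered saline. Tissue was taken 12 hours later from 4 animals per group, called biological replicates in the design text, and each library holds the whole cervix piece, with its epithelium, muscle, stroma and blood. Totals ran from 33191039 counts (PBS replicate 4) to 40634384 counts (PBS replicate 2), and 3 counts corresponded to 0.0738 to 0.0904 CPM (a count divided by the library total in units of 1e+06 counts). The 8 genes listed for reproductive tract identity, among them Esr1, Pgr and Hoxa11, were all tested, and 9 placenta and decidua markers summed to at most 0.279 CPM in any library. Of the whole piece it cannot be told apart whether a lower transcript level came from fewer cells of a type or from less RNA per cell.

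Of the 10 enzymes, 1 rose, 0 fell and 9 did not pass an adjusted p of 0.05. The gene that rose was Tbxas1, thromboxane synthase, and its locus overlaps a gene that also rose. Over all genes tested, 16.9% were called, 9.49% higher and 7.45% lower, so the members' share was near the background. The median log2 fold change was 0.10 over the 10 enzymes and 0.01 over all genes tested. At an unadjusted p of 0.05, 3 enzymes passed, namely Tbxas1, Ptgs2 and Hpgd. Levels below are CPM with library sizes corrected by TMM, the trimmed mean of M values. Fold changes are log2 of LPS over PBS, tests are edgeR's quasi-likelihood F tests adjusted by Benjamini-Hochberg over all genes tested, and intervals are 95% intervals from the standard error (SE) of the same fit, not adjusted for the number of genes. Since levels were not divided by transcript length, they are compared between libraries and not between genes.

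**Figure D1:**
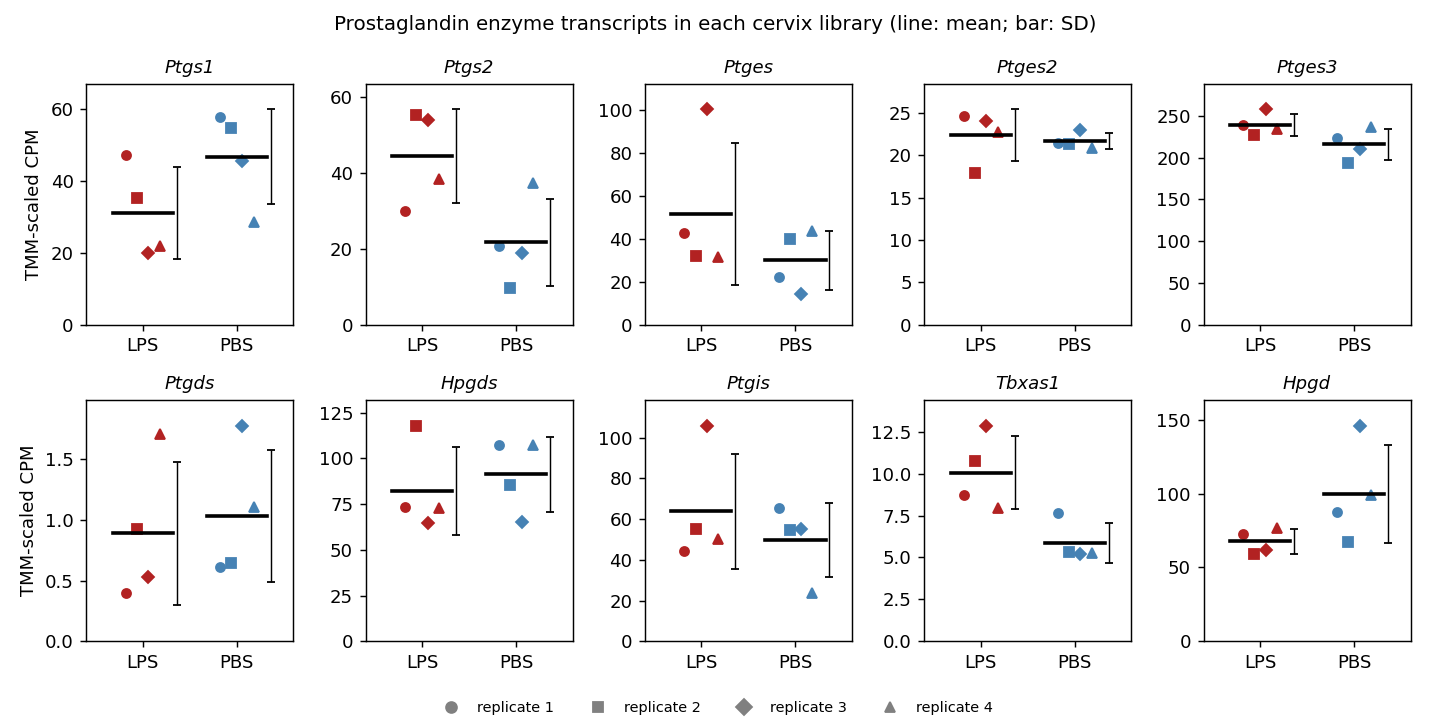
TMM-scaled CPM of each enzyme gene in each library, LPS at the left and PBS at the right of each panel, with 1 symbol per replicate, the mean as a line and the SD as a bar. The groups are apart in the panel of Tbxas1, where the LPS libraries run from 7.92 to 12.8 CPM and the PBS libraries from 5.20 to 7.66 CPM, and they overlap in the other 9.

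RefSeq (build GRCr8) gave a promoter window for 7 of the 10 genes. The 250 bases before the start are shown for the 2 cyclooxygenases, which make the same product and are known as the constitutive and the inducible form, and for Tbxas1, the enzyme that rose. Capitals mark matches to 5 motifs, searched on both strands: the C/EBP motif TTNNGCAAT, the cAMP response element TGACGTCA, the E-box CACGTG, the AP-1 motif TGANTCA and the TATA box TATAAA. A sixth, the NF-kB motif, was searched by its usual degenerate form.
Ptgs1, chr3:39981169-39981418, + strand: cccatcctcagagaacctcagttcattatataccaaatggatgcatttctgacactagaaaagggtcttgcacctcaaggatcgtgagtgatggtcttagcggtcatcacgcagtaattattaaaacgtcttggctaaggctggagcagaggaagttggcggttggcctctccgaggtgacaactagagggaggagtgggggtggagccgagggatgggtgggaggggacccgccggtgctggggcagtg
Ptgs2, chr13:64713813-64714062, + strand: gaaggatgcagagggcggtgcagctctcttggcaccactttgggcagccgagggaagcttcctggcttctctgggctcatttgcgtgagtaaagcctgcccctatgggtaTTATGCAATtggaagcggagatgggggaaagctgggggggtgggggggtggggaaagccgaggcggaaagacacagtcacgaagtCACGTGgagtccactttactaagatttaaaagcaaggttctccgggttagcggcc
Tbxas1, chr4:68631635-68631884, + strand: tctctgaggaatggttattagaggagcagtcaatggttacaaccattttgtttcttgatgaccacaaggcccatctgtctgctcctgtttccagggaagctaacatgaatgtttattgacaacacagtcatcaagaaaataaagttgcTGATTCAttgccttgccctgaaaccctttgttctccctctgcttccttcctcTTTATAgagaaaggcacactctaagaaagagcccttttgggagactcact
The Ptgs2 window held a C/EBP match beginning 140 bases and an E-box match beginning 55 bases before the start, and that of Tbxas1 held an AP-1 match beginning 102 bases and a TATA box match, on the other strand, beginning 50 bases before it. None of the 6 motifs had a match in the windows of Ptgs1, Ptges, Ptges3, Ptgds or Hpgd. Of 33469 promoter windows in the same table, 2.04% held the C/EBP motif, 5.59% the E-box, 6.34% the AP-1 motif, 12.9% the TATA box, 1.59% the cAMP response element and 3.54% the NF-kB motif. No match of the last 2 was found in any of the 7 windows, and bases farther upstream were not searched. A match is a stretch of letters, and the libraries hold no measure of binding.

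The constitutive cyclooxygenase Ptgs1 had 47.2, 35.2, 20.1 and 21.9 CPM in LPS replicates 1 to 4, against 57.8, 54.8, 45.6 and 28.6 CPM in PBS replicates 1 to 4. The groups overlapped, with LPS replicate 1 above PBS replicate 3 and PBS replicate 4 below 2 LPS libraries. The log2 fold change was -0.59 (SE 0.31, interval -1.30 to 0.12, adjusted p = 0.227, n = 4 per group). Smooth muscle markers fell in 7 of 12 cases and rose in 0, and their summed level was 4184 to 6092 CPM in LPS and 4983 to 13734 CPM in PBS, where replicate 4 was the lowest and the other 3 were at 11256 CPM or more. PBS replicate 4 was also the PBS library with the least Ptgs1. In LPS the order was the other way, with sums of 4184, 5105, 5808 and 6092 CPM in replicates 1 to 4, so that replicate 1, with the least muscle signal, had the most Ptgs1. Whether muscle content had a part in the Ptgs1 values was not tested. Without PBS replicate 4 the log2 fold change of Ptgs1 was -0.77 (adjusted p = 0.125).

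The inducible cyclooxygenase Ptgs2 had 29.9, 55.3, 53.9 and 38.4 CPM in LPS and 20.8, 9.75, 18.9 and 37.3 CPM in PBS. It was above every PBS library in 3 of 4 LPS libraries, and the overlap came from PBS replicate 4, which stood above LPS replicate 1. The mean was 44.4 ± 12.3 CPM in LPS and 21.7 ± 11.5 CPM in PBS (SD, n = 4 per group), which gave a log2 fold change of 1.04 (SE 0.37, interval 0.19 to 1.89, adjusted p = 0.0925). This was the largest value among the 10 enzymes. Of 17 alternatives the threshold was passed in 3, with PBS replicate 4 left out (1.43, adjusted p = 0.0269), with DESeq2 (1.03, adjusted p = 0.0277) and with limma-voom and library quality weights (1.25, adjusted p = 0.0462). In the other 14 the adjusted p was 0.0566 to 0.249, and the lowest value was 0.79, without PBS replicate 2 (adjusted p = 0.149). The gene Ptgs2os, antisense to Ptgs2 by its name and on the other strand, had 26, 76, 109 and 89 counts in LPS and 35, 19, 27 and 27 counts in PBS. Its log2 fold change was 1.40 (SE 0.45, adjusted p = 0.0643), and its level was 0.642, 1.94, 2.76 and 2.17 CPM in LPS and 0.894, 0.470, 0.665 and 0.809 CPM in PBS, with LPS replicate 1 below 3 PBS libraries. Ptgs2os was looked up after the values of Ptgs2 were seen.

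Within a library, Ptgs2 counts divided by Ptgs1 counts gave 0.633, 1.57, 2.69 and 1.76 in LPS and 0.359, 0.178, 0.413 and 1.30 in PBS. In 3 of 4 LPS libraries and in 1 of 4 PBS libraries, replicate 4, more reads came from the inducible than from the constitutive gene. The medians were 1.67 in LPS and 0.386 in PBS, and the groups overlapped. Ptgs2 counts divided by those of the breakdown enzyme Hpgd gave 0.410, 0.937, 0.875 and 0.499 in LPS and 0.237, 0.145, 0.129 and 0.377 in PBS. This was the only ratio of the 3 computed in which the groups did not overlap, with the lowest LPS library just above PBS replicate 4. It joins 2 genes with log2 fold changes of opposite sign (1.04 for Ptgs2 and -0.56 for Hpgd). The share of other gene pairs whose ratio does not overlap was not computed, and among single genes tested 23.4% did not overlap. The third, Ptges over Hpgd, ran from 0.407 to 1.62 in LPS and from 0.0989 to 0.589 in PBS. The ratios are descriptions with no test, and they carry the lengths of the transcripts, which do not change between libraries.

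**Figure D2:**
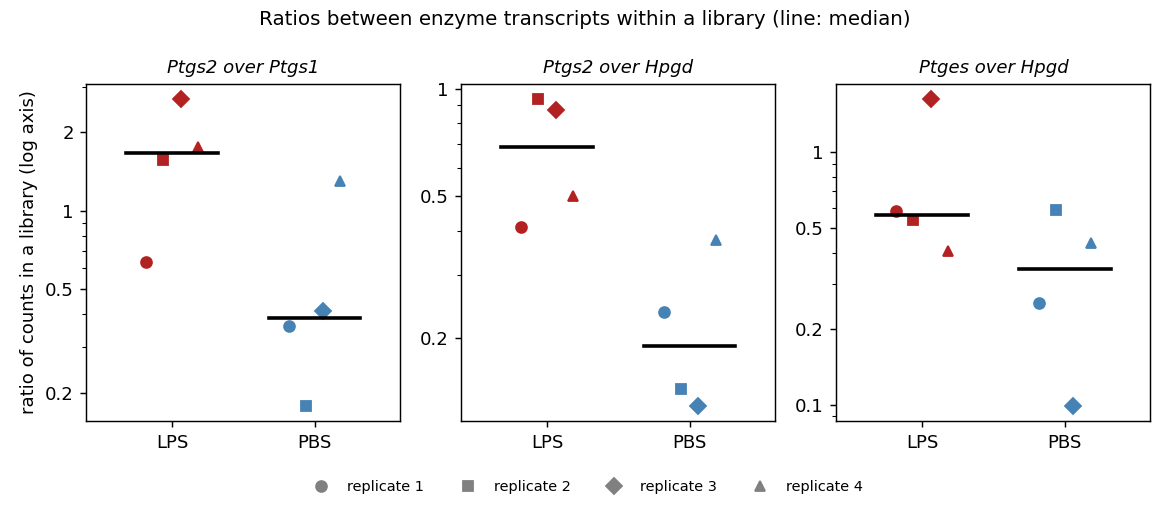
Counts of an enzyme gene divided by those of another in the same library, on a log axis, LPS at the left and PBS at the right, with 1 symbol per replicate and the median as a line. Ptgs2 over Hpgd runs from 0.410 to 0.937 in LPS and from 0.129 to 0.377 in PBS, whereas the other ratios overlap.

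Microsomal prostaglandin E synthase Ptges, the inducible synthase that is coupled to Ptgs2, had 42.6, 31.8, 100.1 and 31.3 CPM in LPS and 22.1, 39.7, 14.4 and 43.4 CPM in PBS. LPS replicate 3 stood apart, and the other 3 LPS libraries lay within the range of PBS. The log2 fold change was 0.78 (SE 0.46, interval -0.27 to 1.84, adjusted p = 0.280), or 0.24 without LPS replicate 3. In PBS the 2 libraries with the most Ptges, replicates 2 and 4, were also those with the highest summed squamous epithelium markers (10319 and 13228 CPM, against 7441 and 7652 CPM in the others). In LPS that sum was 5269 to 6303 CPM, and LPS replicate 3, with the most Ptges, was at 5500 CPM. Krt5 and Krt15 made up 71.8% of these sums. The other 9 markers summed to 964, 772, 1394 and 1250 CPM in LPS replicates 1 to 4. There replicate 3 was the highest, as for Ptges, while replicate 4, with the least Ptges, was above replicates 1 and 2. In PBS they summed to 2324, 3406, 2471 and 4897 CPM, with replicates 2 and 4 again the highest. Of 8 squamous markers tested 0 were higher and 2 were lower, the other 3 in the table (Krt4, Ivl and Sprr3) fell below the filter, and their part in the Ptges values was not tested.

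The other prostaglandin E synthases varied less between libraries than Ptges. Ptges2, a membrane-associated form, had 24.7, 17.9, 24.0 and 22.8 CPM in LPS and 21.4, 21.4, 23.0 and 20.8 CPM in PBS, and its log2 fold change was 0.05 (SE 0.11, interval -0.20 to 0.30, adjusted p = 0.806). Ptges3, the cytosolic form, is also the Hsp90 co-chaperone p23. It had 239, 227, 258 and 234 CPM in LPS and 223, 193, 211 and 236 CPM in PBS, and its log2 fold change was 0.15 (SE 0.09, interval -0.05 to 0.35, adjusted p = 0.267). The SD was 13.6% of the mean for Ptges2 and 5.45% for Ptges3 in LPS, and 4.25% and 8.45% in PBS, compared with 63.8% in LPS and 46.4% in PBS for Ptges. The copies Ptges3l1 and Ptges3l, matched by name, had 19 to 31 and 286 to 312 counts in LPS and 14 to 39 and 296 to 392 counts in PBS, few beside the 7814 or more of Ptges3.

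The prostaglandin D synthases did not pass either. Hpgds, the form of mast cells, macrophages and other blood-derived cells, had 73.4, 117.6, 64.7 and 72.8 CPM in LPS and 107.3, 85.1, 64.9 and 107.2 CPM in PBS. LPS replicate 2 was high in a group whose other libraries lay near the lowest PBS library, and the log2 fold change was -0.15 (SE 0.22, interval -0.66 to 0.36, adjusted p = 0.684). Leaving out LPS replicate 2 gave -0.38 (adjusted p = 0.196). LPS replicate 2 also had the highest summed level of macrophage and monocyte markers (2502 CPM, with the rest of LPS at 1571 to 1924 CPM and PBS at 758 to 1276 CPM). The summed mast cell markers, at 128 to 211 CPM in LPS and 115 to 169 CPM in PBS, were 93.6% Kit and Gata2, which other cells express too. The other 9 markers, among them the mast cell proteases Cpa3, Cma1 and Tpsab1, summed to 11.8, 5.25, 23.6 and 13.1 CPM in LPS, where replicate 2 was the lowest, and to 3.79 to 9.78 CPM in PBS. Their part in the Hpgds values was not tested. Of 9 mast cell markers tested 1 was higher, Hdc, and 0 were lower, Mcpt2 and Mcpt10 fell below the filter, and 0 of the 11 in the table were at 0 in all libraries. On GRCr8 the Hpgds locus overlaps Smarcad1, a chromatin remodeller, whose own log2 fold change was 0.05 (adjusted p = 0.713). Ptgds, the lipocalin-type synthase best known from brain, held 16 to 70 counts per library in LPS and 24 to 72 counts in PBS, or 0.395 to 1.71 CPM and 0.613 to 1.77 CPM. Its log2 fold change was -0.22 with an interval of -1.46 to 1.02 (adjusted p = 0.818), which holds values of either sign.

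Prostacyclin synthase Ptgis, an enzyme of vessel walls and smooth muscle, had 44.3, 55.0, 105.8 and 50.4 CPM in LPS and 65.4, 54.9, 55.4 and 23.6 CPM in PBS. LPS replicate 3 was the highest and PBS replicate 4 the lowest of all, and the other 6 libraries lay between them. The log2 fold change was 0.36 (SE 0.36, interval -0.46 to 1.17, adjusted p = 0.531). Leaving out PBS replicate 4 gave 0.12, and leaving out LPS replicate 3 gave 0.0011. Endothelial markers, of which 1 of 10 was lower and 0 were higher, summed to 581, 557, 692 and 454 CPM in LPS and to 913, 690, 512 and 409 CPM in PBS. LPS replicate 3 and PBS replicate 4 were the highest and the lowest of their groups, as for Ptgis, while the lowest sum in LPS was in replicate 4 and the least Ptgis in replicate 1. All 10 were detected. Smooth muscle markers summed to 4184, 5105, 5808 and 6092 CPM in LPS and to 13734, 11256, 11975 and 4983 CPM in PBS. In PBS the lowest sum was in replicate 4, as for Ptgis, while in LPS the highest was in replicate 4 and the most Ptgis in replicate 3. The part of either cell type in the Ptgis values was not tested.

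Thromboxane synthase Tbxas1, known from platelets and macrophages, had 8.74, 10.8, 12.8 and 7.92 CPM in LPS and 7.66, 5.32, 5.20 and 5.28 CPM in PBS. Every LPS library was above every PBS library, although LPS replicate 4 exceeded PBS replicate 1 by little. Groups did not overlap for 23.4% of all genes tested. The mean was 10.1 ± 2.20 CPM in LPS and 5.87 ± 1.20 CPM in PBS (SD, n = 4 per group), which gave a log2 fold change of 0.78 (SE 0.20, interval 0.32 to 1.24, adjusted p = 0.0324). The call was lost when any one of LPS replicates 2 and 3 and PBS replicates 2, 3 and 4 was left out, with adjusted p-values of 0.0748 to 0.0965. Over the 8 libraries left out in turn the value stayed between 0.64 and 0.93.

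On GRCr8 the Tbxas1 locus overlaps Parp12, a mono-ADP-ribosyltransferase induced by interferon, which lies on the other strand. Parp12 had 91.7, 84.1, 90.9 and 72.9 CPM in LPS and 49.5, 39.9, 46.1 and 42.6 CPM in PBS, and rose by 0.93 (SE 0.10, adjusted p = 0.00106). Within their groups PBS replicate 1 had the most and LPS replicate 4 the least of both genes, while LPS replicate 1 had the most Parp12 and the third most Tbxas1 in LPS. Whether strand was used in counting is not given in the sources used here. The overlap is of the whole loci, and whether their exons overlap was not examined. Whether reads of Parp12 entered the Tbxas1 counts was not tested, and the rise of Tbxas1 is given with that limit. Parp12 was looked up after Tbxas1 was seen to pass.

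Marker genes of the cells known to make thromboxane moved unequally. Of 14 macrophage and monocyte markers tested 9 were higher and 1 was lower, and Marco, the last of the 15, fell below the filter. Their summed level was 1571, 2502, 1924 and 1781 CPM in LPS and 1276, 952, 963 and 758 CPM in PBS. PBS replicate 1 had both the highest sum and the most Tbxas1 among PBS libraries, whereas in LPS the highest sum was in replicate 2 and the most Tbxas1 in replicate 3. Of 6 platelet markers tested 1 was higher and 2 were lower, with a summed level of 32.9 to 45.8 CPM in LPS and 35.4 to 78.5 CPM in PBS. Of the 4 below the filter, Gp1bb was at 0 in all libraries, and Gp1ba, Gp9 and Treml1 had 8, 9 and 10 counts over the LPS libraries and 69, 57 and 232 counts over the PBS libraries. Of 8 red cell markers tested 0 were higher and 6 were lower. The 9 in the table summed to 120 to 678 CPM in LPS and 732 to 2290 CPM in PBS. Whether the platelet values followed the amount of blood in the pieces was not tested. The part of macrophages, platelets or blood content in the Tbxas1 values was not tested either. The genes most like Tbxas1 over the 8 libraries, by the root mean square difference of centred log2 CPM among 13535 genes, were Clic2 (0.0633), Adprm (0.0817) and Slc1a1 (0.0929). For Ptgs2 they were Lrrc15 (0.312), Ido2 (0.338) and Exoc3l4 (0.356), a looser likeness.

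**Figure D3:**
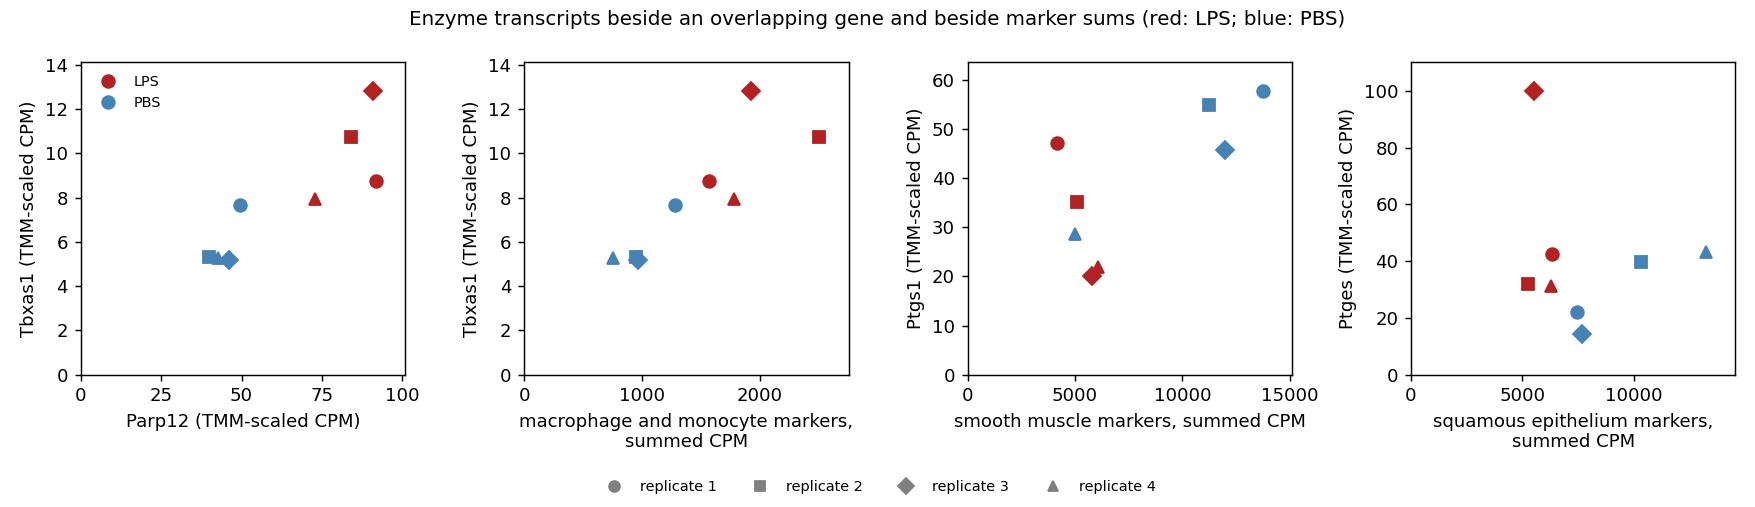
Each panel plots an enzyme gene, in TMM-scaled CPM, against an overlapping gene or a summed marker level in the same 8 libraries, LPS in red and PBS in blue, with 1 symbol per replicate. Tbxas1 and Parp12 are both highest in the LPS libraries, and PBS replicate 4, with 4983 CPM of smooth muscle markers, lies beside the LPS libraries in the panel of Ptgs1.

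The breakdown enzyme Hpgd had 72.8, 59.1, 61.6 and 77.0 CPM in LPS and 87.8, 67.5, 145.7 and 99.0 CPM in PBS. LPS libraries were tightly grouped, with an SD of 12.8% of the mean against 33.2% in PBS, and 3 of 4 PBS libraries were above all of them, while PBS replicate 2 lay within their range. The mean was 67.6 ± 8.64 CPM in LPS and 99.997 ± 33.2 CPM in PBS (SD, n = 4 per group), which gave a log2 fold change of -0.56 (SE 0.22, interval -1.06 to -0.07, adjusted p = 0.109). Under the 17 alternatives the value ran from -0.71 to -0.33 and passed the threshold in 0, with a lowest adjusted p of 0.0511 by DESeq2. PBS replicate 3, with the most Hpgd, decided the size, which was -0.33 without it (adjusted p = 0.216). Glandular epithelium markers, of which 1 of 11 was lower and 0 were higher, summed to 21743 to 22508 CPM in LPS and 16955 to 27355 CPM in PBS, where replicate 3 was the highest. The mucin Muc5b made up 82.8% of these sums, and the other 10 markers summed to 3689, 3397, 2992 and 3022 CPM in LPS and 3861, 4596, 4081 and 5184 CPM in PBS, where replicate 4 was the highest. None was at 0 in all libraries, and their part in the Hpgd values was not tested.

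**Figure D4:**
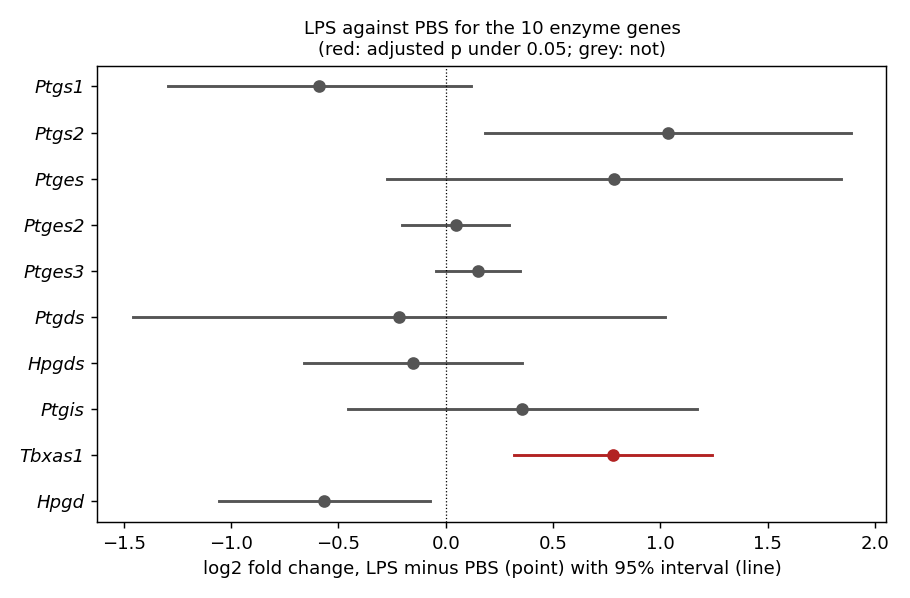
Log2 fold change of each enzyme gene, LPS minus PBS, as a point with its 95% interval as a line, in red where the adjusted p is under 0.05 and in grey where it is not. The intervals of Ptgs2 (0.19 to 1.89), Tbxas1 (0.32 to 1.24) and Hpgd (-1.06 to -0.07) leave out 0, and of these Tbxas1 is the one called.

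Steps before and after these enzymes were described by lists of other genes of the pathway. The counts called in each list stand beside 9.49% higher and 7.45% lower over all genes tested, and the list medians beside 0.01. Of 15 genes of arachidonate release tested, 3 rose and 1 fell, with a median log2 fold change of 0.25. Pla2g2a, a secreted phospholipase A2 of acute inflammation, had 3089, 6437, 2258 and 3427 CPM in LPS and 33.8, 95.2, 86.8 and 153 CPM in PBS, with no overlap, and rose by 5.37 (SE 0.55, adjusted p = 0.000886). Mgll, monoacylglycerol lipase, which frees arachidonate from an endocannabinoid, had 32.7, 31.5, 20.8 and 31.2 CPM in LPS and 107.4, 78.0, 48.0 and 42.1 CPM in PBS, and fell by 1.25 (SE 0.30, adjusted p = 0.0244), a call lost without LPS replicate 3 or PBS replicate 2. The cytosolic phospholipase Pla2g4a (0.57, adjusted p = 0.0419) and Plaat3 (0.46, adjusted p = 0.0390) also rose, and were named with their values in view. The call of Pla2g4a held without LPS replicate 4 or PBS replicate 1 and that of Plaat3 without PBS replicate 4, and leaving out any other library ended them.

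Of 8 tested genes listed for the return of fatty acids, arachidonate among them, to membrane lipids or for phospholipid binding, 3 rose and 0 fell, with a median of 0.14. Lpcat3, which puts arachidonate into phosphatidylcholine, had 67.6 to 79.3 CPM in LPS and 37.4 to 46.4 CPM in PBS and rose by 0.81 (SE 0.10, adjusted p = 0.00154). Mboat7, which does so for phosphatidylinositol, had 46.2 to 54.5 CPM in LPS and 35.2 to 39.4 CPM in PBS and rose by 0.46 (SE 0.08, adjusted p = 0.00583). The third, named after its value was seen, was Lpcat1 (0.42, adjusted p = 0.0336), whose call was lost when any one of LPS replicates 1, 2 and 3 and PBS replicates 2, 3 and 4 was left out.

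Of 14 tested genes of prostaglandin transport and reduction, 1 rose and 1 fell, with a median of 0.10. Prxl2b, a prostamide and prostaglandin F synthase, had 7.01 to 7.50 CPM in LPS and 2.66 to 6.09 CPM in PBS, a rise of 0.84 (SE 0.24, adjusted p = 0.0462) that passed without PBS replicate 3 and with no other library left out. Gstm2, a glutathione transferase, had 70.9 to 119.9 CPM in LPS and 169 to 195 CPM in PBS and fell by 0.76 (SE 0.16, adjusted p = 0.0152), also with any one library left out. The uptake carrier Slco2a1, which brings prostaglandins to Hpgd in the cell and was named after its value was seen, averaged 49.7 ± 6.79 CPM in LPS and 67.4 ± 20.6 CPM in PBS and did not pass (-0.44, SE 0.22, adjusted p = 0.195).

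Of 9 prostanoid receptors 8 were tested, and of these 1 rose and 0 fell, with a median of 0.36. Ptgfr, the receptor for prostaglandin F2-alpha, had 13.6, 12.2, 30.7 and 10.1 CPM in LPS and 2.40, 2.33, 5.13 and 2.61 CPM in PBS, and rose by 2.41 (SE 0.42, adjusted p = 0.00721). Of 21 known inducers and regulators of Ptgs2, 6 rose and 2 fell, with a median of 0.24. Il1b, a cytokine that induces Ptgs2, had 39.0, 65.0, 76.9 and 76.3 CPM in LPS and 9.76, 10.1, 11.6 and 24.0 CPM in PBS. Every LPS library was above every PBS library, and it rose by 2.21 (SE 0.34, adjusted p = 0.00435). Myd88, the adaptor of Toll-like and interleukin-1 receptors, rose by 0.86 (SE 0.13, adjusted p = 0.00442). The LPS receptor Tlr4 fell (-0.35, adjusted p = 0.0446), as did the glucocorticoid-induced gene Tsc22d3 (-1.06, adjusted p = 0.0419), and this pair was named with their values in view. The call of Tlr4 held without LPS replicate 4 or PBS replicate 1 and that of Tsc22d3 without LPS replicate 3 or 4, and leaving out any other library ended them.

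**Figure D5:**
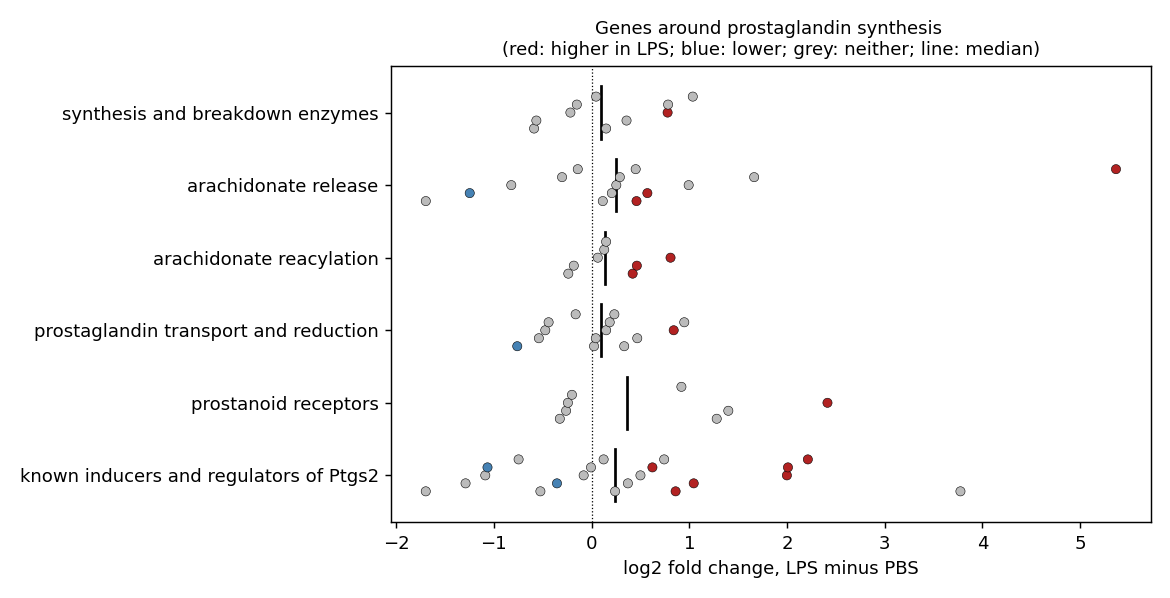
Log2 fold changes, LPS minus PBS, of the 10 enzyme genes and of the tested genes of 5 lists around them, 1 point per gene, red for those that rose, blue for those that fell and grey for the rest, with the median of each list as a line. Among the enzymes the values lie between -0.59 and 1.04, and among the genes of arachidonate release Pla2g2a lies at 5.37.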

How the data were processed

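RNA of 8 cervix libraries, 4 LPS and 4 PBS, was counted per gene. The deposited values are raw read counts, with genes given by symbol. Tools in the submitters' processing notes are HTSeq, HISAT2, fastp and R 3.2.0, with mRatBN7.2 as the build. The sources used here do not give the annotation, the strand setting or the role of each tool.

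Genes were kept with edgeR's filterByExpr by group, scaled by TMM, and compared with edgeR 4.0.16 (robust quasi-likelihood fit, F test) in R 4.3.3. The SE is the log2 fold change divided by the square root of F, and intervals use the degrees of freedom of the fit. Centred log2 CPM used a prior count of 2. The fit was also run on simulated data to check the code, and its power at the fold changes seen here is not given. The alternatives were DESeq2 1.42.0, limma-voom (limma 3.58.1) plain and with quality weights, upper-quartile or RLE scaling, no filter or one of at least 1 CPM in 4 libraries, the replicate number as a block, each library left out, and both PBS replicate 1 and LPS replicate 2 left out. Within a group, any pair of libraries differed by more than sampling noise (lowest chi-square per degree of freedom 54.1). Counting error alone is covered by the depth given.

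The members and all lists were chosen with earlier results of these data known. Named genes are the 10 members, the 2 called genes with the lowest adjusted p of each list, and the 3 genes of at least 1 CPM most like Ptgs2 and each called member. Pairings of an enzyme with a marker list, and the markers left out of a sum, were chosen after their values were seen. Gene names and overlaps were taken from RefSeq GRCr8, where all 10 members matched by symbol. As the builds differ, its gene coordinates are not printed, and those of the promoter windows are on GRCr8.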

Additional observations from a re-analysis of the deposited data

Results flagged for a closer look

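In 20 groups of 4 libraries (10 enzymes, each in LPS and PBS), 3 held a library far from the others, by a gap to its nearest neighbour that passed Dixon's 95% critical value. Chance flags about 1 in 20 groups. Ptges in LPS replicate 3 was at 100.1 CPM, with the rest of LPS at 31.3 to 42.6 CPM, and its log2 fold change was 0.24 without that library and 0.78 with it. Hpgds in LPS replicate 2 was at 117.6 CPM, against 64.7 to 73.4 CPM. Tbxas1 in PBS replicate 1 was at 7.66 CPM, against 5.20 to 5.32 CPM in the other PBS libraries, and without it Tbxas1 rose by 0.93 (edgeR adjusted p = 0.0197).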

How the results depend on the processing

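Of the 10 enzymes, 0 were lower under any of the 17 alternatives, and the number higher, 1 in the edgeR test, was 2 with DESeq2 and with weighted limma-voom (Tbxas1 and Ptgs2). It was 0 with the replicate block, and 0 to 1 with 1 library left out: 0 without LPS replicate 2 or 3 or PBS replicate 2 or 3, and 1 without PBS replicate 4, where the gene was Ptgs2 and not Tbxas1. Over all genes, 1529 were higher and 1200 lower. DESeq2 gave 2089 lower, and with 1 library left out 904 to 1385 were higher and 563 to 1199 lower, the fewest of both without PBS replicate 2. Lower genes numbered 750 without LPS replicate 3 and 752 without PBS replicate 3. The cause was not tested. With 1 library left out, the log2 fold change of Ptges2 ran from -0.0025 (without LPS replicate 1) to 0.13 and that of Ptgds from -0.75 to 0.18 (0.03 without LPS replicate 1 and 0.18 without PBS replicate 3), so that both changed sign. Ptgds had no value under the stricter filter. Deviations of same-numbered libraries from their group means had correlations across 16117 genes of -0.134, -0.181, -0.0867 and 0.208 for numbers 1 to 4. The highest value of any pair was 0.24, for LPS replicate 2 with PBS replicate 1. Replicate numbers, also those of the replicate block, follow the sample titles. The submitters' library names are PTB-5 for LPS replicate 4 and NC-4 for PBS replicate 4, so at number 4 these names do not match. The correlations cannot settle whether the numbers mark a pairing. With the replicate block Tbxas1 had a log2 fold change of 0.77 (adjusted p = 0.0749). Not every sample correlated best with its own number.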
